A study of Mus musculus with 92 samples.

Results

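The 7 genes described here carry the MHC class II antigen presentation pathway and were taken by symbol from a table of 23811 mouse genes: H2-Aa, H2-Ab1, H2-Eb1, H2-DMa, H2-DMb1, Cd74 and Ciita. The genes were listed by name with earlier results of these data known, and all 7 passed the filter on low values that left 12099 genes for testing. They were followed by RNA-seq in tibialis anterior muscle of wild-type male C57BL/6J mice aged 10 weeks. The left muscle was freeze-injured with a steel probe at the temperature of dry ice and the right muscle of the same animal, which was not injured, served as control. Injured and control muscles numbered 2 and 3 at 3 h, 5 and 5 at 10, 24 and 72 h, 3 and 4 at 48 h, 3 and 4 at 7 days, 5 and 5 at 14 days, 4 and 3 at 21 days and 5 and 5 at 28 days. Each muscle was 1 leg of 1 animal, so that a p-value rests on the spread between animals within groups. Both legs came from 36 animals, and the main fit treated them as independent muscles. Whole muscle was sequenced, so more cells of a type and more RNA per cell cannot be told apart.

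MHC class II molecules are heterodimers of an alpha and a beta chain that show peptides from endocytosed protein to CD4 T cells. Dendritic cells, macrophages and B cells are the main cells known to carry them. H2-Aa and H2-Ab1 encode the alpha and beta chains of I-A. H2-Eb1 encodes the beta chain of I-E, and C57BL/6 mice are known to lack the alpha chain partner, so that I-E does not reach the cell surface in this strain. Cd74, the invariant chain, fills the peptide groove of new dimers, and the H2-DM dimer of H2-DMa and H2-DMb1 helps exchange its remnant for peptide. Ciita, the class II transactivator, is the coactivator that switches on the other genes through factors bound at the X and Y boxes of their promoters.

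Promoter sequence is shown for the 3 members whose RefSeq windows hold a Y box motif on the strand opposite to the gene. RefSeq windows (GRCm38.p6) were found for 4 members, and the 150 bases before the transcript start were searched on both strands for CCAAT (Y box, bound by NF-Y), GCAAC (part of the X1 box, bound by RFX) and TGACG (part of the X2 box, bound by CREB/ATF proteins). Matches on either strand are in capitals, and all windows run 5′ to 3′ along the gene. The H2-Aa window lies at chr17:34287824-34287973 on the minus strand, that of H2-Eb1 at chr17:34305717-34305866 and that of H2-DMb1 at chr17:34153041-34153190, both on the plus strand.
H2-Aa: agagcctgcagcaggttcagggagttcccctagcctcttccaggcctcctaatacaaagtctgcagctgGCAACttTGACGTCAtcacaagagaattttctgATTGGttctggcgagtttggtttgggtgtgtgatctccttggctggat
H2-Eb1: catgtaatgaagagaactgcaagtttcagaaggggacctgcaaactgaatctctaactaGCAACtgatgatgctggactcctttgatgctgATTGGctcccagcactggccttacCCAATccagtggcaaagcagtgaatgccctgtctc
H2-DMb1: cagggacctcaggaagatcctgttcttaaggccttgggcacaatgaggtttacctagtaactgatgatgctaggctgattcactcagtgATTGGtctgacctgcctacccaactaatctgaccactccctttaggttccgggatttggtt
In H2-Aa the GCAAC match began 81 bases before the start, the TGACG match 74 and the reverse CCAAT match 48. In TGACGTCA the forward and reverse TGACG matches overlap. In H2-Eb1 the GCAAC match began at 91 and the reverse CCAAT match at 59, with a forward CCAAT match at 35, so the GCAAC and reverse CCAAT matches were 33 bases apart in H2-Aa and 32 in H2-Eb1. Of the exact letter runs searched, H2-DMb1 held only the CCAAT match, at 61. Its longest run shared with H2-Eb1 was 13 bases, aactgatgatgct, at 92 in H2-DMb1 and 89 in H2-Eb1. In H2-Eb1 this run starts inside the GCAAC match. In H2-DMb1 the same place differs from GCAAC by 1 letter, so the search for exact letters found no match there. The windows of H2-DMa held only a GCAAC match, on the opposite strand 7 bases before 1 of its 2 starts. Of 32851 promoter windows of this length, 24.5% held CCAAT, 19.6% GCAAC, 13.3% TGACG and 0.816% all 3, as H2-Aa did. A match is a run of letters and was not tested for binding.

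In the deposited tables (mm9) 5 of the 7 genes lie on chromosome 17: H2-DMa at 34259777 to 34276046, H2-DMb1 at 34290136 to 34297174, H2-Ab1 at 34400172 to 34406363, H2-Aa at 34419696 to 34424716 and H2-Eb1 at 34442812 to 34453619. Ciita lies at 10480165 to 10527657 on chromosome 16 and Cd74 at 60963503 to 60972306 on chromosome 18. H2-DMb1 has a close copy, H2-DMb2, with 95.9% identity over 786 coding bases and 251 of 1322 windows of 76 bases (the read length) in common, so their levels are uncertain to the extent that reads were split between them. The other pairs compared, H2-Eb1 with H2-Eb2, H2-Aa with H2-DMa and H2-Ab1 with H2-Eb1, shared 0 such windows, with 73.3%, 54.2% and 73.7% identity.

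Levels are in FPKM (fragments per kilobase of transcript, scaled to the mapped fragments of the library), which can be compared between genes and holds no read counts, so the depth of each library is unknown. FPKM sums over all genes ranged from 287291 to 828110 over the 78 libraries used, and 5611 to 11572 genes were above 1 FPKM. The 6 muscle fiber markers had summed levels of 34323 to 74305 in control muscles and 6616 to 62547 in injured muscles, so that every library showed the labelled tissue. Acta1, a fiber actin, was listed at 0 in 5 muscles, so that an exact 0 of an abundant gene here may be a failed estimate. Some libraries stood apart. At 7 days both legs of animal 02 had FPKM sums of 755535 (control) and 828110 (injured), against 372804 to 416162 in the other used libraries of that time. At 24 h the B libraries of animal 03 had lower member levels than the A libraries of the same legs, and the 2 were averaged. The control muscle of animal 02 at 72 h had the fewest genes above 1 FPKM.

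Before injury effects are considered, the members kept an order in level. In 76 averaged muscles H2-Aa was above H2-Ab1 in all 76, H2-Ab1 above H2-Eb1 in 74, and Cd74 above H2-Aa in 64. H2-DMa and H2-DMb1 came next and did not separate over injured and control muscles together, with H2-DMa higher in 39 and H2-DMb1 in 37. Their order differed between the legs. The median ratio of H2-DMb1 to H2-DMa was 0.845 in control muscles (0.367 to 4.16) and 1.37 in injured muscles (0.470 to 2.26). Ciita was lowest in every muscle. In control muscles H2-Aa ranged from 1.85 to 45.8 FPKM and Cd74 from 3.33 to 40.3, while Ciita ranged from 0 to 0.114. The median ratio of H2-Aa to H2-Ab1 was 1.56 in control and 1.65 in injured muscles, and that of H2-Eb1 to H2-Ab1 was 0.723 and 0.653, medians over all times within which single times differed. Control muscles were also compared over time. In the limma F test over the 9 control groups, 21.5% of all genes passed and 0 of 7 members did, with adjusted p from 0.616 for Cd74 to 1 for Ciita.

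At 3 h and 10 h the members were not called. At 3 h H2-Aa was at 15.9 and 8.15 FPKM in the injured muscles and at 6.25, 5.96 and 8.0 in the controls, so the groups were close without overlapping. The log2 difference of H2-Aa on the log2(FPKM + 0.1) scale used throughout was 0.76 (SE 0.89). With called meaning a limma adjusted p under 0.05 and a change of at least 2-fold, 1.69% of genes were called higher at 3 h and 0 of 7 members. An unadjusted p under 0.05 was found for 0 members, beside 1402 of 12099 genes in either direction. At 10 h the injured H2-Aa levels were 16.2, 6.29, 8.26, 15.1 and 4.55 FPKM and the control levels 8.70, 8.77, 3.71, 2.31 and 1.85, which overlap. Of all genes 11.8% were called higher at 10 h and of the members 0. An unadjusted p under 0.05 was found for 2 members, beside 3827 of 12099 genes in either direction. With the animal as replicate block, 1 member, H2-DMa, was called at 10 h at a log2 difference of 1.07 (limma adjusted p = 0.0365), beside 12.4% of all genes.

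At 24 h all 7 members were higher in injured muscle, beside 17.6% of all genes. H2-Aa was at 21.0, 29.1, 32.0 and 60.7 FPKM in animals 01, 02, 04 and 05 and at 26.9 and 2.61 in the A and B libraries of animal 03. The control legs of the same animals held 5.26, 13.4, 7.38 and 4.81 FPKM, and 7.73 and 2.91 in the A and B libraries. Once the A and B libraries were averaged, every injured muscle was above every control muscle for all 7 members. The share of all genes with such separate groups is not given, so this count cannot be set against all genes. The log2 differences ran from 1.22 for Ciita (SE 0.33, limma adjusted p = 0.00279) to 2.86 for H2-DMb1 (SE 0.62, adjusted p = 0.000192), with H2-Aa at 2.06 (SE 0.61, adjusted p = 0.00627). Ciita went from a mean of 0.0460 FPKM in controls to 0.255 in injured muscles, so that its absolute level stayed low. Without the injured muscle of animal 05, the highest of this group, H2-Eb1 was not called and the other 6 members were.

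**Figure D1:**
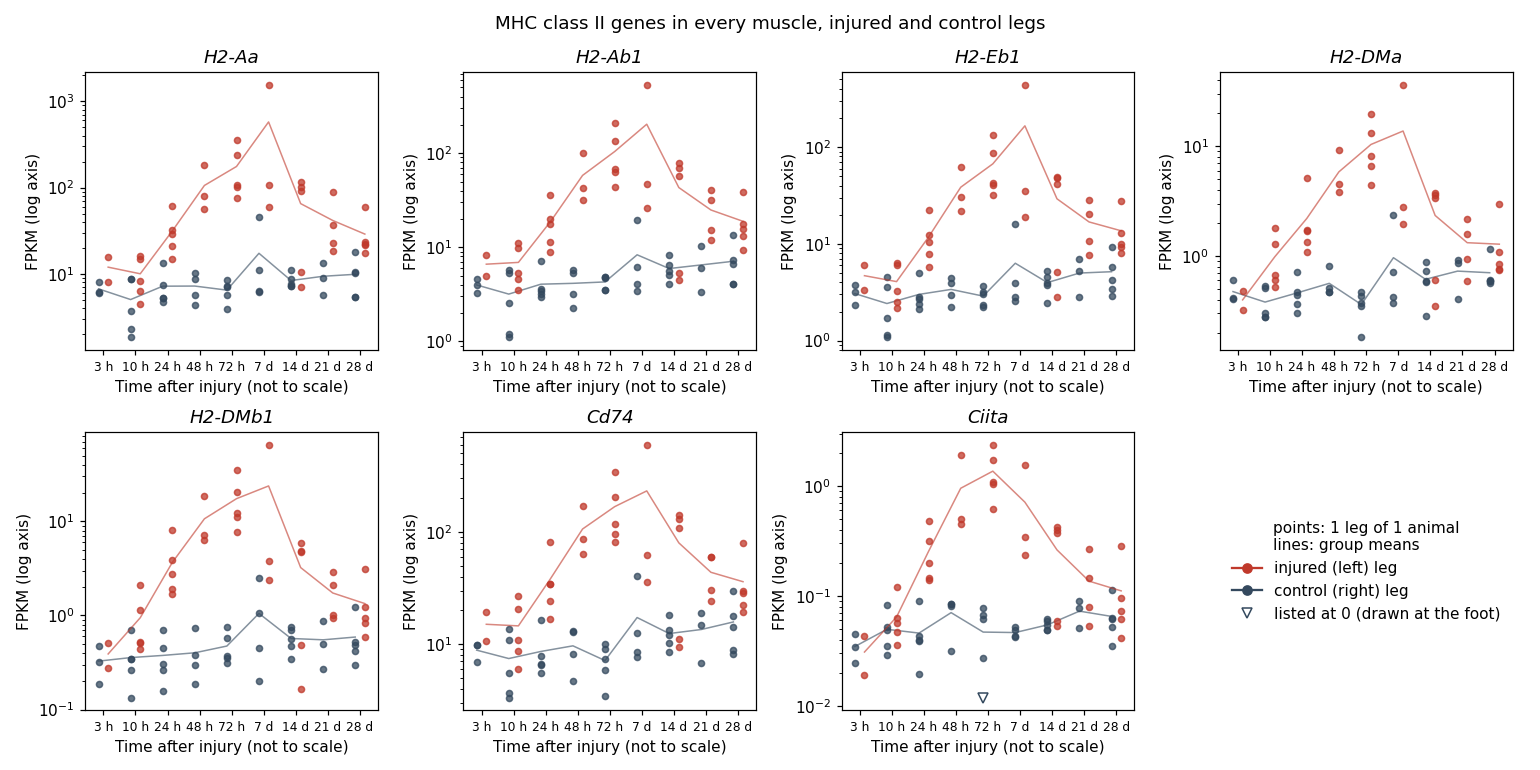
Level of each of the 7 genes in FPKM on a log axis against time after injury, with 1 point for each leg of each animal (A and B libraries of 1 leg averaged), lines through the group means and open triangles at the foot for levels listed at 0. Injured muscles lie above all control muscles for each of the 7 genes at 24, 48 and 72 h, and the highest injured point at 7 days is animal 02. The share of all genes for which the groups are separate is not given.

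By 48 h the rise covered the chains, the chaperones and the transactivator alike. Injured H2-Aa levels were 79.1, 181 and 57.2 FPKM, against 10.2, 8.80, 4.34 and 5.69 in control muscles. The groups did not overlap for any member, a count given without the share of all genes. The log2 differences ran from 2.37 for Ciita to 4.36 for H2-DMb1, and all 7 were called where 33.1% of all genes were.

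At 72 h the differences were largest in the fit for all 7 members. H2-Aa was at 76.6, 103, 355, 236 and 108 FPKM in injured muscles of animals 01 to 05 and at 7.17, 7.30, 5.67, 8.52 and 3.93 in their control legs. Cd74 was at 81.4, 95.3, 341, 202 and 118 FPKM against 9.03, 3.42, 7.42, 9.92 and 5.88. Every injured leg was thus well above its own control leg, by 10.7 to 62.6 times for H2-Aa. H2-DMb1 was at 7.75, 12.3, 35.2, 20.8 and 11.2 FPKM against 0.357, 0.755, 0.310, 0.574 and 0.372. Its log2 difference of 4.78 (SE 0.62, limma adjusted p = 6.2e-10) was the largest among the members. Its ratio to H2-DMa at 72 h was 1.37 to 1.87 in injured and 0.653 to 4.16 in control muscles, which overlap. The ranges were apart at 24 h (injured 1.426 to 2.259, control 0.514 to 0.974) and at 48 h (1.599 to 2.018 and 0.367 to 1.466). They were also apart at 21 days (0.995 to 1.701 and 0.579 to 0.964) and overlapped at 3 h, 10 h, 7 days, 14 days and 28 days. The ratio was not tested. Ciita was at 0.611, 1.08, 2.37, 1.72 and 1.04 FPKM in injured legs, and in control legs it was listed at 0 in animal 02 and at 0.0272 to 0.0783 in the others. Its difference of 3.22 (SE 0.33, adjusted p = 4.34e-13) had the smallest standard error, on a scale where the added 0.1 shrinks the change of a gene this low. The remaining log2 differences were 4.53 for H2-Aa, 4.41 for Cd74, 4.36 for H2-DMa, 4.35 for H2-Ab1 and 4.30 for H2-Eb1.

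These calls stand on a broad shift of the table. At 72 h 50.2% of all genes were called higher, and the median log2 difference of all genes was 1.01, which became -0.23 after quantile normalization and 0.21 after upper quartile scaling. The members' median at 72 h was 4.36, and H2-Aa kept a difference of at least 3.68 over all alternatives run. All 7 were called under both scalings, but the share of all genes called under them is not given. That count therefore cannot be set against all genes. H2-Aa exceeded 96.0% of the tested genes in its difference and Ciita 89.2%.

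**Figure D2:**
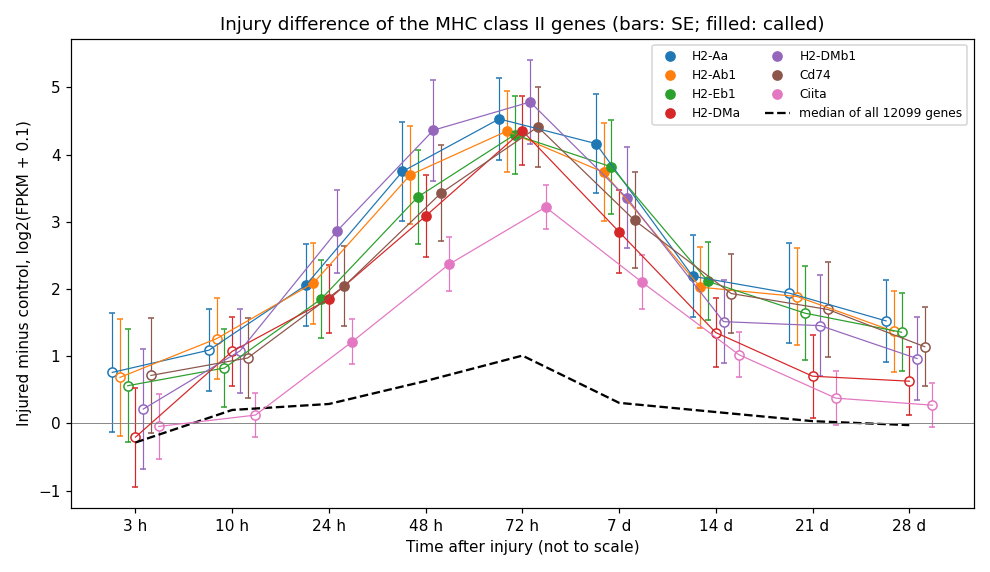
Injured minus control difference of each gene in log2(FPKM + 0.1), with bars of 1 SE from limma, against time after injury. Filled points were called and open points were not, and the dashed line is the median of all 12099 tested genes, which peaked at 1.01 while the members' median was 4.36.

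At 7 days all 7 members were still called higher, beside 21.6% of all genes, and the injured muscles were far apart. H2-Aa was at 1559, 60.3 and 107 FPKM in animals 02, 03 and 04, and at 45.8, 6.29, 6.21 and 11.2 in the control legs of animals 02 to 05. Animal 02 was therefore highest in both legs, and for H2-DMa, H2-DMb1 and Cd74 its control leg was above the lowest injured muscle. Log2 differences ran from 2.1 for Ciita (SE 0.40) to 4.17 for H2-Aa (SE 0.74, limma adjusted p = 1.31e-05). Without both legs of animal 02, a choice made after the values were seen, all 7 members were still called, beside 8.11% of all genes, with differences of 1.42 for Ciita to 3.38 for H2-Aa. Without its injured leg alone 4 members were called, H2-DMa, H2-DMb1 and Cd74 being lost, and with 7 days fitted on its own 0 were. The share of all genes called is not given for either fit. In that injured leg the 10 macrophage and monocyte markers summed to 4964 FPKM, against 257 and 308 in the other injured legs, and the 5 T cell markers to 28.5, against 0.888 and 3.25. In its control leg the macrophage markers summed to 70.9 FPKM, against 11.4 to 32.4 in the other controls. Both legs of this animal also had the highest FPKM sums over all genes, 755535 (control) and 828110 (injured). The 3 fibroblast markers summed to 963 FPKM in its injured leg, against 167 and 197 in the other injured legs. The 3 endothelial markers summed to 15.5 there, against 16.7 and 22.8. The part of these markers in the members' levels was not tested.

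The proportions of the members in injured muscle differed between 7 days and 72 h. The ratio of H2-Aa to H2-Ab1 was 2.29, 2.31 and 2.90 in the 3 injured muscles at 7 days and 1.58 to 1.76 at 72 h. The ratio of Cd74 to H2-Ab1 was 1.11 to 1.38 at 7 days and 1.49 to 1.87 at 72 h. For both ratios the ranges of the 2 times were apart. In control muscles at 7 days the ratio of H2-Aa to H2-Ab1 was 1.54 to 2.34, which overlaps the injured range. Animal 02 was highest in both legs, with 2.34 in its control and 2.90 in its injured leg. The ratio of Cd74 to H2-Ab1 was 2.04 to 2.25 in these controls. These ratios were compared after their values were seen and were not tested.

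At 14 days the injured muscles split in level. H2-Aa was at 115, 90.8 and 103 FPKM in animals 03, 04 and 05 and at 10.6 and 7.11 in animals 01 and 02, while the control legs held 7.22, 7.32, 8.85, 7.59 and 11.1. Animals 01 and 02 thus lay close to the control levels, with H2-DMb1 in animal 02, at 0.165 FPKM, even below every control leg, and no member's groups were separate. The macrophage and monocyte markers divided the same muscles, with sums of 19.2 and 21.1 FPKM in animals 01 and 02 and 224 to 337 in the others, and the T cell markers with 0.0628 and 0.177 against 1.95 to 3.18. Markers of other tissue cells divided them too, the 3 fibroblast markers with sums of 58.5 and 170 FPKM against 381 to 570 and the 3 endothelial markers with 24.8 and 17.1 against 40.8 to 41.2. The part of these markers in the split was not tested. H2-Aa, H2-Ab1 and H2-Eb1 were called higher, with log2 differences of 2.19, 2.03 and 2.11 (limma adjusted p = 0.0334, 0.0463 and 0.0308), beside 2.89% of all genes. Cd74 missed the threshold at 1.93 (SE 0.59, adjusted p = 0.0503). With the animal as replicate block 6 members were called, all but H2-DMb1, beside 5.55% of all genes. The calls depended on single muscles: 7 members were called without injured animal 01 or without injured animal 02, and 0 without injured animal 03, 04 or 05, or without control animal 01, 02, 03 or 04. Without control animal 05 H2-Ab1 was lost and 2 members were called. The share of all genes called in these fits is not given.

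At 21 and 28 days no member was called, although most injured legs lay above the control legs of the same animals. At 21 days H2-Aa was at 88.1, 37.0, 23.1 and 18.5 FPKM in injured animals 01, 03, 04 and 05 and at 5.75, 9.01 and 13.5 in control animals 01, 04 and 05. Its log2 difference was 1.94 (SE 0.74, limma adjusted p = 0.822). Called higher were 0 of 7 members and 0.00827% of all genes. An unadjusted p under 0.05 was found for 4 members, beside 654 of 12099 genes in either direction. At 28 days H2-Aa was at 22.3, 21.7, 23.7, 17.3 and 60.0 FPKM in injured animals 01 to 05 and at 10.2, 10.5, 5.49, 5.46 and 18.1 in the same animals' control legs. Animal 05 was highest in both legs, and the groups overlapped only because its control leg, at 18.1, was above injured animal 04, at 17.3. Each injured leg was 2.07 to 4.33 times its own control leg. Cd74 was at 22.2, 29.5, 28.6, 19.4 and 80.2 FPKM against 17.7, 14.1, 8.93, 8.15 and 29.8, higher in 5 of 5 animals. So were H2-Ab1, H2-Eb1, H2-DMa and H2-DMb1, while Ciita was higher in 4 of 5. At 28 days 0 members were called, beside 0.0496% of all genes. An unadjusted p under 0.05 was found for 3 members, beside 381 of 12099 genes in either direction. With the block 0 members were called at 21 or 28 days. The difference of H2-Aa at 28 days, 1.53 (SE 0.61), ranked 36 from the largest among 12099 genes, H2-Ab1 ranked 57, H2-Eb1 58 and Cd74 100, whereas H2-DMb1 ranked 158, H2-DMa 494 and Ciita 1790. None of these differences passed the test.

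**Figure D3:**
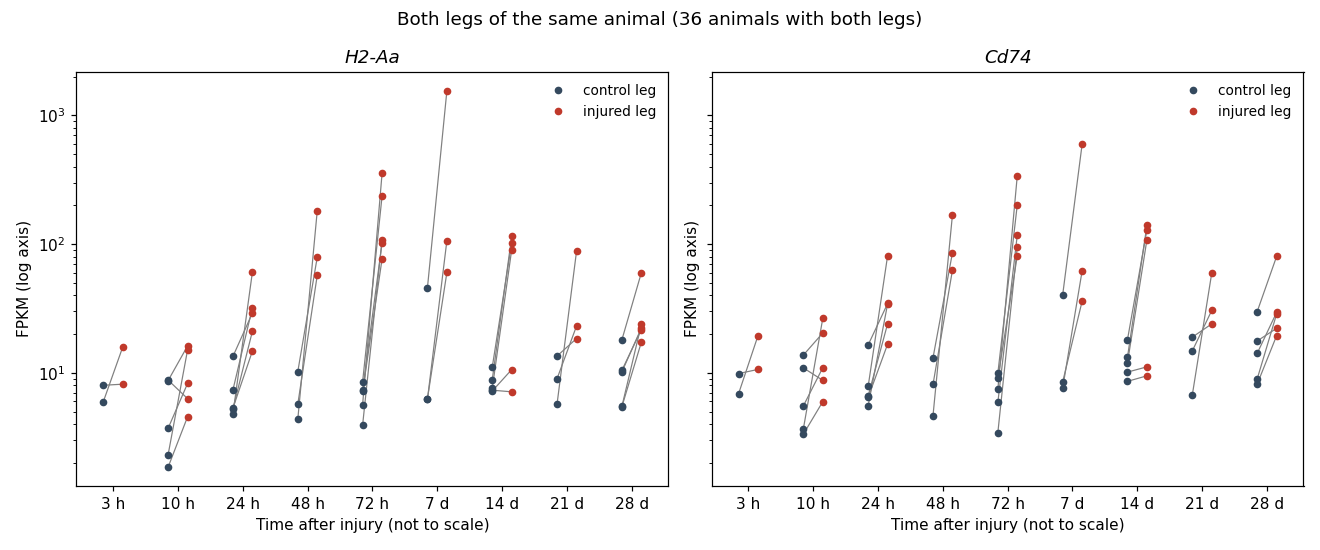
H2-Aa and Cd74 levels in FPKM on a log axis in both legs of the 36 animals with both legs, joined by a line, against time after injury. Every line rises from the control to the injured leg at 24, 48 and 72 h and at 7, 21 and 28 days, and at 14 days 2 animals stay near their control leg.

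The size of the injury difference was also compared between times. Between neighbouring times no member was called by limma, with 0 of 7 in each of the 8 steps, beside 0.785%, 0.322%, 0.686%, 1.69%, 31.9%, 0.314%, 0% and 0% of all genes from the step of 3 to 10 h to that of 21 to 28 days. Unadjusted p was under 0.05 for 0, 2, 1, 0, 1, 2, 0 and 0 members in these steps, and the share of all genes at that threshold is not given. From 72 h to 7 days, where 3764 genes were called smaller and 92 larger, the members' changes ran from -1.5 for H2-DMa to -0.37 for H2-Aa, with a lowest adjusted p of 0.0747. The wider spans were tested after the values were seen. From 10 to 72 h the difference grew in all 7 members, by 3.09 for H2-Ab1 to 3.71 for H2-DMb1 on the log2 scale, beside 36.3% of all genes. From 72 h to 28 days it shrank in all 7, beside 51.5% of all genes, and fell by 2.94 for H2-Eb1 to 3.82 for H2-DMb1.

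Other genes of the pathway were followed as lists. Among class II genes outside the members, 3 were tested, and 2 of 3 rose at 24 h and 3 of 3 at 48 h, 72 h and 7 days. At 72 h H2-Ob and H2-DMb2 had log2 differences of 2.28 and 3.54. H2-Ob encodes the beta chain of H2-DO, a modulator of H2-DM. H2-Oa, its alpha chain, was listed at 0 in all 5 control muscles at 72 h and was at 0.344 to 1.69 FPKM in the injured ones. H2-Eb2 was below the filter, with 0.0897 to 0.365 FPKM in injured muscles at 72 h, and H2-Ea-ps was listed at 0 in all 10 muscles of that time.

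Of 7 genes for class II processing, 6 rose at 72 h with a list median of 3.81, against 1.01 for all genes. At 14 days 1 of 7 was called, Ctss, the cathepsin that trims the invariant chain, at 2.66 (limma adjusted p = 0.0202). At 72 h Ctss had the largest difference of the list at 7.33 (SE 0.68, limma adjusted p = 8.57e-15), with a mean of 634 FPKM in injured and 4.72 in control muscles. Ifi30, a lysosomal thiol reductase, rose by 5.28 and Lgmn, an asparaginyl endopeptidase, by 5.10. Sppl2a, the protease that cuts the last membrane stub of the invariant chain, had a difference of 0.81. At 24 h 4 of the 7 rose, and at 10 h 3 of the 7.

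Of 10 tested genes for class II transcription, 5 rose at 72 h, a share near the 50.2% of all genes, with a list median of 1.02, near the 1.01 of all genes. Irf8 and Irf1, factors of interferon responses and myeloid cells, rose by 4.14 and 3.40. The factors bound to the X and Y boxes ranged widely, and those outside the 3 largest and 3 smallest differences of the list are named after their values were seen: Nfya rose by 2.80 and Creb1 by 1.08, while Rfx5, Rfxank, Rfxap, Nfyb and Nfyc had differences of 0.97, 0.67, 0.13, 0.06 and 0.57 and were not called. Ciita was at 3.22, and the gap between it and these factors was not tested. Spi1 was not analysed here.

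Of 7 tested genes of the interferon gamma path 4 rose at 72 h, among them Irf1, Socs1 and Ifngr1, with Socs1, a feedback inhibitor, at 2.88 and Ifngr1, a receptor chain, at 2.60. The other receptor chain, Ifngr2, and the kinases Jak1 and Jak2 had differences of 0.42, 0.88 and 0.08. Ifng itself was below the filter, with 0.0180 to 0.380 FPKM in the 5 injured muscles at 72 h, and it was listed at 0 in 4 of 5 control muscles. At 7 days Irf1 alone of this list was called.

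Costimulatory and class I genes rose with the members. All 6 tested costimulation genes rose at 72 h (list median 3.92), Cd40 by 4.74, Cd86 by 4.52, Cd83 by 4.36, Icosl by 3.47, Cd80 by 3.34 and Cd274, an inhibitory ligand, by 2.78. At 14 days Cd83, a surface protein of mature dendritic cells known to keep class II on the surface, was the 1 member of this list called, at 1.87 (limma adjusted p = 0.0385). All 10 class I presentation genes rose at 72 h (list median 3.73), from 1.43 for Erap1, which trims peptides, to 4.88 for Tap1, a peptide transporter subunit. Nlrc5, the transactivator of class I genes and a relative of Ciita, rose by 4.17. At 14 days 0 of 10 class I genes were called, beside the 3 members, and the difference between the lists was not tested.

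Markers of the cells known to carry class II moved with the members. Of 10 macrophage and monocyte markers 9 rose at 24 h, 10 at 48 and 72 h, 9 at 7 days and 5 at 14 days. Their summed level was 1534 to 6180 FPKM in injured and 13.8 to 61.0 in control muscles at 72 h, and 34.2 to 174 against 14.5 to 46.0 at 28 days. Of 7 tested dendritic cell markers 3 rose at 24 h and 6 at 72 h, where the 9 listed genes summed to 7.89 to 28.5 FPKM in injured and 1.54 to 2.16 in control muscles. Itgax, the CD11c integrin, rose by 4.31 at 72 h, and Zbtb46, a transcription factor of conventional dendritic cells, had a difference of 0.94 and was not called. Flt3 was below the filter and at 0.366 to 1.33 FPKM in injured muscles. Among B cell markers only Cd79b passed the filter, Pax5 stayed at or below 0.0400 FPKM at 72 h, and the list summed to 1.28 to 3.26 FPKM in injured muscles. The 3 tested T cell markers Cd3g, Cd4 and Lck rose at 72 h, 7 days and 14 days. Neutrophil markers were called in 4 of 4 from 3 to 72 h, that is, before any member, and in 0 of 4 at 14 days. The 3 fibroblast markers also rose at 72 h, Col1a1 by 4.85 and Pdgfra by 3.07. The part of any cell type in the members' levels was not tested.

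**Figure D4:**
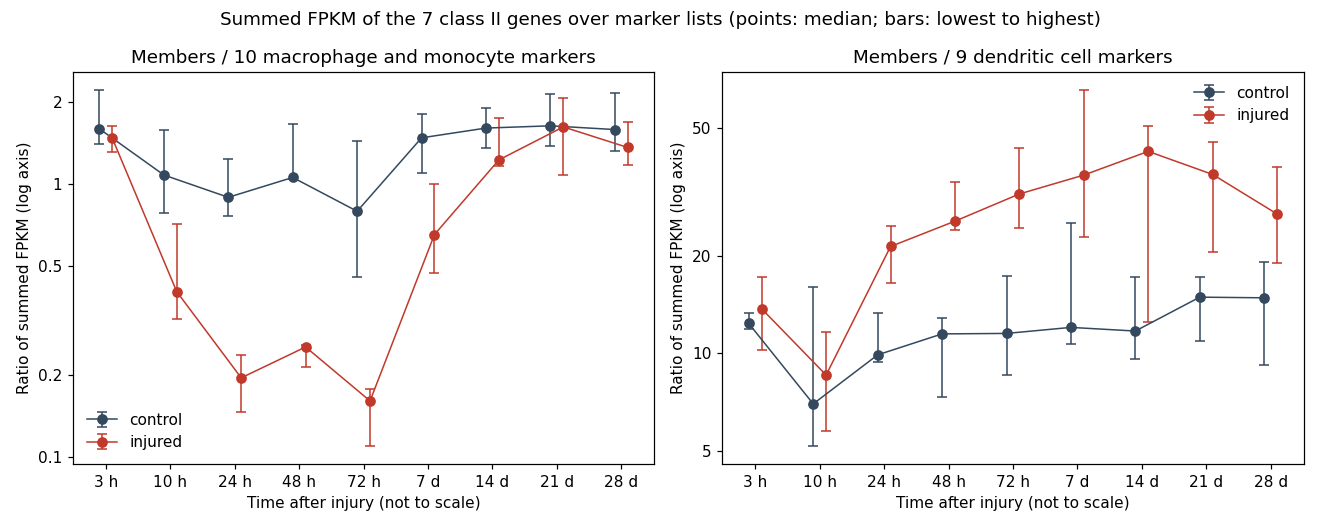
Summed FPKM of the 7 genes divided by the summed FPKM of 10 macrophage and monocyte markers (left) or of 9 dendritic cell markers (right) on log axes, against time after injury, with the median and the lowest and highest muscle of each group. The first ratio is lowest in injured muscle at 72 h, with a median of 0.160, and the injured median of the second is above the control median at every time.

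Set against these markers, the members did not follow macrophage genes in proportion. In injured muscle the summed FPKM of the members was 0.110 to 0.178 times that of the macrophage and monocyte markers at 72 h, against 0.457 to 1.43 times in controls, with no overlap. The ratio was 0.473 to 1.00 in injured muscle at 7 days and 1.18 to 1.69 at 28 days, the latter within the control range of 1.32 to 2.15 but for its low end. Against the dendritic cell markers the ratio moved the other way, to 24.4 to 43.4 in injured and 8.55 to 17.4 in control muscle at 72 h. At 28 days it was 19.0 to 37.7 against 9.18 to 19.2. Lyz2, a lysozyme, supplies most of the macrophage sum, at 2865 FPKM of mean level in injured muscle at 72 h. The ratios were built after the data were seen and were not tested.

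The genes most like the members over the 18 group means were Dclk1, Apoe, Clec10a, C1qa, C1qc, Tusc3, Osbpl3, Tmsb10, Col5a2 and H2-DMb2, by Pearson r with the members' mean profile, from 0.986 for Dclk1 to 0.981 for H2-DMb2. C1qa and C1qc, chains of complement C1q, were at mean levels of 236 and 247 FPKM in injured muscle at 72 h and 2.74 and 3.49 in controls. Clec10a, a lectin of macrophages and dendritic cells, was at 15.1 against 0.381, and Apoe, the apolipoprotein, at 911 against 12.9. The members' own r with the mean of the other 6 ran from 0.947 for Ciita to 0.988 for H2-Ab1. Of 11952 genes compared, 10.6% had an r over 0.9, so that such a likeness is common in this table.

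Ciita isoforms could be seen only in outline. Its 3 rows in the isoform table start at 10480165, 10488271 and 10489874 on chromosome 16, and their highest group means were 0.639, 0.131 and 0.594 FPKM. None reached the 1 FPKM set for a test of isoform shares, and no such test was run. The isoform table holds 1 row for Cd74, with 17.8% of the gene's level, and 1 row with 100% for each of the other 5 members.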

How the data were processed

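RNA was poly(A)-selected and strand-specific libraries were read as paired 76-base reads. Per the labels and the methods, the authors aligned reads to mm9 with TopHat and estimated levels with Cufflinks, and they deposited FPKM per gene and isoform, with no counts, so depth is unknown and no counting interval is given. The submitters' processing notes also name Cuffdiff, which was not used here. Of 92 samples, 80 had a column and 12 were not analysed here. A control of unknown time and an incomplete injured library at 7 days (334 genes above 0, all on 1 chromosome) were left out, and the 2 libraries of each leg of animal 03 at 24 h entered as their mean, leaving 37 injured and 39 control muscles.

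A gene was kept where some group reached 1 FPKM on average (12099). Values were log2(FPKM + 0.1), so low genes' changes are understated. All 18 groups entered 1 fit with limma 3.58.1 (R 4.3.3, lmFit and eBayes with trend, 58 residual degrees of freedom), with Benjamini-Hochberg adjustment over all genes within a contrast and calls at adjusted p under 0.05 and 2-fold. The fit was tested on simulated data. The labels pair legs by animal. Over 36 pairs the correlation of deviations had a median of 0.15 and was over 0.1 in 20. Alternatives changed the pseudocount, filter, scaling, weights, comparator, replicate block, library choice and time points fitted together. Lists, ratios and promoter matches were computed with Python 3.11.15 and pandas 2.3.3.

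Named genes were all 7 members, members of lists of up to 10 genes (of longer lists the 3 largest and 3 smallest differences, and any named beyond these were chosen after their values were seen), and the 10 tested genes most like the members over group means. Rows with a shared or date-like symbol were not named. The members and lists were chosen with earlier results of these data known. Identity of paralogs was computed from coding sequences of the GENCODE vM1 transcripts in place of proteins. The isoform test was dropped because no isoform pair reached 1 FPKM. Some list genes are not reported here by name. Start coordinates in the files count from 0 and 1 was added.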

Additional observations from a re-analysis of the deposited data

Results flagged for a closer look

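Over 91 groups of 4 or 5 muscles, 20 values lay far from the rest of their group by Dixon's criterion on FPKM without a log. Its rate of about 1 in 20 groups by chance holds for normally spread values, which was not checked. All flagged values but that of Ciita at 48 h were the highest of their group. The number of flagged values is thus not compared with that rate. Members share muscles, so the values below are not independent. In the injured muscle of animal 05 at 28 days all 7 members were far above the other 4 muscles: H2-Aa at 59.99 FPKM, H2-Ab1 at 38.71, H2-Eb1 at 27.76, H2-DMa at 2.965, H2-DMb1 at 3.114, Cd74 at 80.2 and Ciita at 0.2844. In its control leg H2-DMa, at 1.17, and H2-DMb1, at 1.231, were also apart. The control leg of animal 02 at 7 days was apart for H2-Aa (45.84), H2-Ab1 (19.63), H2-Eb1 (15.91) and Cd74 (40.3). The control leg of animal 02 at 24 h was apart for H2-Ab1 (7.069), H2-Eb1 (5.034) and Cd74 (16.49), and the injured leg of animal 05 at 24 h for H2-DMa (5.17) and Cd74 (81.52). At 48 h the control legs gave H2-DMa at 0.807 in animal 02, the highest, and Ciita at 0.03143 in animal 05, the lowest.

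The injury difference itself changed between time points by limma's test in contrasts chosen after the values were seen. From 10 to 72 h it grew by 3.44 for H2-Aa, 3.088 for H2-Ab1, 3.471 for H2-Eb1, 3.283 for H2-DMa, 3.705 for H2-DMb1, 3.438 for Cd74 and 3.094 for Ciita on the log2 scale. From 72 h to 28 days the changes were -3.005 for H2-Aa, -2.981 for H2-Ab1, -2.939 for H2-Eb1, -3.727 for H2-DMa, -3.818 for H2-DMb1, -3.27 for Cd74 and -2.947 for Ciita.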

How the results depend on the processing

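No member's call reversed under any alternative. The counts of members called higher were 0 at 10 h, 7 at 7 days, 3 at 14 days and 0 at 21 and 28 days. With the animal as replicate block 1 member was called at 10 h and 6 were at 14 days, and the block changed no other count. With each time point fitted alone 1 member was called at 10 h, 0 at 7 days and 0 at 14 days. All control legs as comparator gave 7 members at 14 days, then 4 on day 21 and 4 on day 28. Library weights gave 6 members at 10 h, 7 at 14 days, then 5 on day 21 and 4 on day 28. For times fitted alone, all control legs, library weights and single libraries left out, the share of all genes called is not given. The members' counts under these settings therefore cannot be set against all genes. Keeping the incomplete library at 7 days, in which every member is listed at 0, left 1. Without both legs of animal 02, an alternative added after the data were seen, 3 members had a smaller difference at 7 days than at 72 h. The cause of these moves was not tested. At 24 h the highest limma adjusted p over the alternatives was 0.166 for H2-Aa, 0.156 for H2-Eb1 and 0.132 for Cd74. It was 0.118 for Ciita and 0.109 for H2-Ab1, so these calls were lost under at least 1 setting. For H2-DMa and H2-DMb1 it was 0.0347 and 0.00308. Leaving out 1 library at a time gave 6 to 7 members at 24 h, 4 to 7 at 7 days and 0 to 7 at 14 days. It gave 0 to 4 members with a smaller difference at 7 days than at 72 h (4 without injured animal 02 at 7 days, 1 without injured animal 01 at 72 h), and all other counts stayed as they were. Of the values of single members under other settings, 652 kept their call, 38 became called and 22 were lost. Ciita at 24 h, 48 h and 7 days was lost with a pseudocount of 1, which shrinks the change of a gene this low. The alternative for isoform shares was not run. The number of muscles (2 injured at 3 h, 3 at 48 h and at 7 days) limits the precision.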

Other observations

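The control muscle whose time is not given in the labels, of an animal numbered 03, held 7.95 FPKM of H2-Aa, 5.23 of H2-Ab1, 3.23 of H2-Eb1, 11.6 of Cd74, 0.833 of H2-DMa, 0.385 of H2-DMb1 and 0.0389 of Ciita.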
